A study of Drosophila melanogaster with 8 samples.

Results

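The transcripts examined were those of the 8 genes of the core transcriptional feedback loop of the Drosophila circadian clock: per, tim, Clk, cyc, vri, Pdp1, cwo and cry. Their probe sets were found by gene symbol in the annotation of the array, and all 8 genes were measured, by 10 probe sets in all, among 11982 genes and 18769 probe sets. A probe set is a group of short array probes read together as 1 value. Each gene was represented by its probe set of highest mean over the arrays, and tim and cwo each had a dimmer second set, shown beside it.

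To ask how day length affects head transcripts, females of the wild-type laboratory strain Canton-S were kept from within hours of eclosion for 12 days at 12.5 °C. The long day cycle was 16 h of light and 8 h of dark (LD 16:8), and the short day cycle was 10 h of light and 14 h of dark (LD 10:14). All females were collected 4 h after lights-on. By the label values, that moment lay 12 h after the last lights-off in long days and 18 h after it in short days. Light was still to come for 12 h in long days and for 6 h in short days. The arrays show 1 time of day, and a change in the level of a rhythmic transcript cannot be told apart from a change in its timing. There were 4 samples for each day length, each on an array of its own. Nothing in the labels ties the 4 samples of a group to different vials of flies, so every p given here measures the spread between these samples, part of which may be technical.

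In the clock of the fly, the proteins CLK and CYC bind together to E-box sequences and switch on per, tim, vri, Pdp1 and cwo. PER and TIM accumulate at night, enter the nucleus and shut CLK and CYC off. In an interlocked loop VRI represses Clk and PDP1 activates it, so that Clk RNA cycles roughly in antiphase to per and tim, and the light receptor CRY resets the clock by sending TIM to degradation. In the head this machinery runs in a small network of neurons and also in photoreceptors, glia and fat body, and the RNA of a whole head is the sum over these cells.

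All values are log2 expression values as deposited, made with GCRMA, on which scale a difference of 1 is a doubling. Differences are given as short day minus long day. A gene was called at an unadjusted p under 0.01 in limma fitted across all probe sets, the threshold the study used (Benjamini-Hochberg adjustment covers the 18769 probe sets). The members lay well above the lowest value in the table, 2.15. The lowest value of any of their 10 probe sets on any array was 6.89 and the highest was 11.94.

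Heads of short day females carried more vri RNA, and no other member of the loop was called. Of the 8 genes 1 was called, and it was higher in short days, where 3.48% of all genes were called in either direction and 1.79% were called higher. A count of 1 in 8 is too small to be set apart from these shares. By their means, 5 members were higher and 3 lower in short days, with a median log2 difference of 0.03 against 0.00 over all genes. In 7 of the 8 genes the values of the groups overlapped, and vri was the exception. A full separation of the 4 short day from the 4 long day values was seen in 7.34% of all genes.

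**Figure D1:**
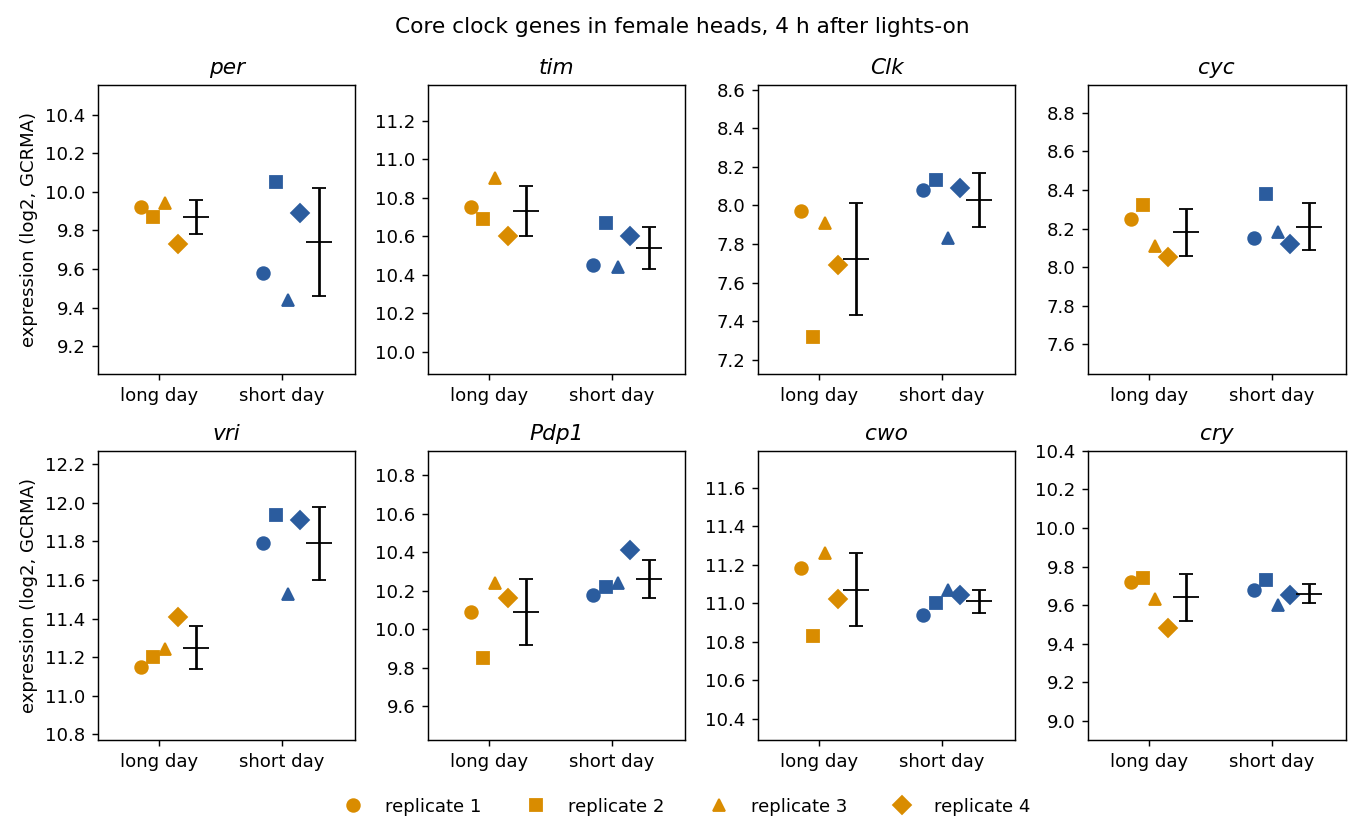
Expression of the 8 core clock genes on each array (y axis, log2 GCRMA value; every panel spans the same range) in long day (orange) and short day (blue) heads. Symbols mark the replicate number, which the main fit did not use to pair the groups, and black bars give the mean and SD of 4 arrays. The 4 short day values of vri, from 11.53 to 11.94, all lie above its 4 long day values, from 11.15 to 11.41, and in the other panels the groups overlap.

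The gene vri (vrille) encodes a bZIP repressor of Clk and is itself a target of CLK and CYC. Its long day values were 11.15, 11.20, 11.24 and 11.41, and its short day values were 11.79, 11.94, 11.53 and 11.91, in the order of the replicates. Long day replicate 4 was the highest of its group and short day replicate 3 the lowest of the other, and these neighbours were still apart. The mean rose from 11.25 ± 0.11 to 11.79 ± 0.19 (SD, n = 4 each). The difference was 0.54 ± 0.11 (SE), with a 95% interval of 0.28 to 0.80, or 1.45-fold (limma p = 0.00190, exact permutation p = 0.0286). It did not pass an adjusted threshold of 0.05 (limma adjusted p = 0.219), which 1 of the 18769 probe sets did. By p, vri stood at place 130 among the 11982 genes. Of the 7348 genes with a mean of at least 4, 2.38% differed by as much as vri or more in size, 61 upwards with vri included and 114 downwards. The permutation p is two-sided and the smallest that 4 against 4 arrays allow.

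Pdp1 encodes a bZIP activator that competes with VRI for the same sites on Clk. Which transcript forms its probe set reads was not examined, here or for the other members. Its long day values were 10.09, 9.85, 10.24 and 10.16, and its short day values 10.18, 10.22, 10.24 and 10.41. Long day replicate 2 was low and short day replicate 4 high, while the values between them were mixed. The means were 10.09 ± 0.17 and 10.26 ± 0.10, and the difference of 0.18 (95% interval -0.05 to 0.41) was not called (limma p = 0.111, exact permutation p = 0.114). The interval holds 0 and also a rise of up to 1.33-fold. Without long day replicate 2 the difference was 0.098.

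Clk encodes the bHLH-PAS activator at the centre of both loops. It had the widest range of the members, with long day values of 7.97, 7.32, 7.91 and 7.69 and short day values of 8.08, 8.13, 7.83 and 8.09. Of the short day arrays 3 lay above the highest long day value, and short day replicate 3 lay within the long day range. The means were 7.72 ± 0.29 and 8.03 ± 0.14, and the difference of 0.31 (95% interval -0.07 to 0.69) was not called (limma p = 0.0935, exact permutation p = 0.0857). Long day replicate 2 was the lowest array, and without it the difference was 0.18.

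Its partner CYC, which in flies is made from a steady transcript, showed long day values of 8.25, 8.32, 8.11 and 8.05 and short day values of 8.15, 8.38, 8.18 and 8.12. The groups were intermingled. The difference was 0.03 (95% interval -0.17 to 0.23, limma p = 0.744, exact permutation p = 0.771), so that a change of more than 1.17-fold upwards lay outside the interval.

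The repressor genes per (period) and tim (timeless) both had lower means in short days, and neither was called. The long day values of per were 9.92, 9.87, 9.94 and 9.73. Its short day values were 9.58, 10.05, 9.44 and 9.89, so that replicate 2 was above all long day arrays and replicates 1 and 3 were below them. The short day spread, an SD of 0.28, was larger than the long day spread of 0.09, and the difference was -0.13 (95% interval -0.47 to 0.22, limma p = 0.401, exact permutation p = 0.4). The per difference was -0.075 without short day replicate 1, -0.232 without replicate 2 and -0.03 without replicate 3.

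The brighter tim set had long day values of 10.75, 10.69, 10.90 and 10.60 and short day values of 10.45, 10.67, 10.44 and 10.60. Of the short day arrays 3 were below the lowest long day value, replicate 4 by less than the rounding, and replicate 2 lay within the long day range. The difference was -0.19 (95% interval -0.40 to 0.01), a ratio of 0.874, and missed the call (limma p = 0.0547, exact permutation p = 0.0571). The dimmer set gave long day values of 8.97, 8.66, 8.66 and 8.65 and short day values of 8.73, 8.56, 8.42 and 8.62. It too was lower in 3 short day arrays than in any long day array, with a difference of -0.15 (95% interval -0.39 to 0.08, limma p = 0.168, exact permutation p = 0.2). Both tim sets thus leaned downwards by a like amount, and in both the lowest array was short day replicate 3.

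The gene cwo (clockwork orange) encodes a bHLH repressor that occupies E-boxes. Its brighter set had long day values of 11.18, 10.83, 11.26 and 11.02 and short day values of 10.94, 11.00, 11.07 and 11.04. The short day arrays lay inside the long day range, and the difference was -0.06 (95% interval -0.29 to 0.17, limma p = 0.555, exact permutation p = 0.543). The dimmer set had long day values of 7.32, 6.89, 7.33 and 7.42 and short day values of 7.54, 7.31, 7.10 and 7.33. Its difference was 0.08 (95% interval -0.27 to 0.43, limma p = 0.582, exact permutation p = 0.657). The pair had opposite signs, and each interval held 0. Long day replicate 2 was the lowest array in both.

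The light receptor gene cry (cryptochrome) was the steadiest member within groups, with a pooled SD of 0.09. Its long day values were 9.72, 9.74, 9.63 and 9.48 and its short day values 9.68, 9.73, 9.60 and 9.65. The short day values lay within the long day range, and the difference was 0.02 (95% interval -0.13 to 0.17, limma p = 0.738, exact permutation p = 0.8). A change of cry by more than 1.13-fold upwards, or to under 0.914 of the long day level, lay outside this interval.

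**Figure D2:**
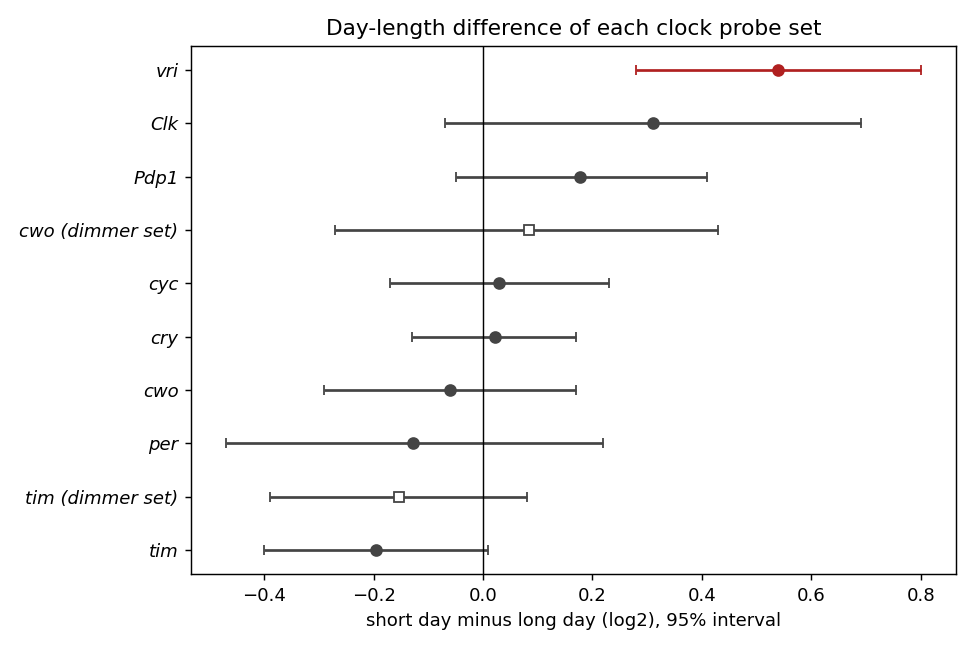
Short day minus long day difference (x axis, log2) of the 10 probe sets of the core clock genes, with 95% intervals from limma. Filled circles are the sets that represent a gene, open squares the dimmer sets of tim and cwo, and red marks the called gene. The interval of vri, 0.28 to 0.80, is the one that does not include 0.

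The pooled SD of the members ran from 0.09 for cry to 0.23 for Clk, with a median of 0.14, and the median over the 7348 genes of mean 4 or more was 0.12. The arrays themselves ranked alike for many members. Short day replicate 2 was the highest of its group for 6 of the 8 genes (per, tim, Clk, cyc, vri and cry), and short day replicate 3 was the lowest for 5 (per, tim, Clk, vri and cry). This was not particular to the members. The means of the neuron and photoreceptor markers described below were also highest in short day replicate 2 and lowest in replicate 3, while that of the glia markers was lowest in replicate 2. The share of such ranks over all genes was not counted. Among the long day arrays replicate 4 was the lowest for per, tim, cyc and cry and the highest for vri, and replicate 2 was the lowest for Clk, Pdp1 and cwo.

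Short day replicate 3 also stood apart in some transcripts of flight muscle, a tissue of the thorax, and in the fat body markers Fbp1 and Fbp2. Flightin (fln) was at 11.71 there and at most 2.69 elsewhere. The troponin C gene TpnC4 was at 10.36 there and at 2.15, the lowest value of the table, on the other 7 arrays. Fbp1 was at 6.26 and Fbp2 at 7.06 there, and they were at 2.22 and 2.17 on the other 7 arrays. Of the 9 measured genes listed as flight muscle markers 3 were called higher, Mlc2 at 0.49 (limma adjusted p = 0.171), Prm at 0.52 (adjusted p = 0.176) and Strn-Mlck at 0.36 (adjusted p = 0.318). Replicate 3 was the highest short day array for none of these. The 3 called genes were at 10.97 or more on every array, also where fln and TpnC4 were at 2.69 or less. They thus did not follow fln and TpnC4, and which muscle their RNA came from was not tested. In 5 of the 9 all short day values lay above all long day values. Over all genes 1.79% were called higher, and 7.34% were fully separated in either direction. Over the 9 listed genes the summed level, as log2, was 14.35 to 14.60 in long days and 14.80 to 15.69 in short days. The vri difference was larger without this array, at 0.63, and was called (limma adjusted p = 0.147). The differences of the other members without it were -0.03 for per, -0.16 for tim, 0.38 for Clk, 0.04 for cyc, 0.18 for Pdp1, -0.08 for cwo and 0.04 for cry, and none was called.

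Whether vri differed from its partners in its response was examined as the log2 ratio of vri to each of the other 7 genes per array. As vri was the member called on these same arrays, its own separation carries into the ratios. They are therefore no separate support for its rise. The ratio of vri to tim rose from 0.52 to 1.25, a difference of 0.73 (95% interval 0.44 to 1.03), and that of vri to per rose by 0.67 (0.38 to 0.96). The ratios to cwo and cry rose by 0.60 (0.21 to 0.99) and 0.52 (0.19 to 0.85). In these 4 pairs all short day ratios lay above all long day ratios, the smallest exact permutation p the design allows (p = 0.0286), and after adjustment over the 7 pairs each stood at 0.05, at the threshold and not under it. The ratios to cyc and Pdp1 rose by 0.51 (0.15 to 0.87) and 0.36 (0.06 to 0.66) with overlapping groups (exact permutation p = 0.0571 and adjusted p = 0.0667 for each). The ratio to Clk rose by 0.23 (-0.18 to 0.64, exact permutation p = 0.343), so a different response of vri and Clk was not detectable. Without long day replicate 1 this value was 0.114, and without long day replicate 2 it was 0.347.

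Markers of cell types that the head holds were read on the same arrays, where 1.69% of all genes were called lower and 1.79% higher. Of 15 measured fat body markers 8 were lower in short days and none was called higher. The summed level of the 15, as log2, was 17.64 to 17.68 in long days and 17.10 to 17.39 in short days. The 8 were Yp1, Yp2, Yp3, Lsp2, AkhR, fit, Lsd-1 and Jabba. Of the 7 not called, fon was at -0.47, apolpp at -0.06, FASN1 at 0.04, bmm at 0.12 and Lpin at 0.24, besides Fbp1 and Fbp2. The amount of fat body in the heads was not tested. Of 22 neuron markers 4 were higher, and all 22 had a positive difference, from 0.01 to 0.36, below the 0.54 of vri. Their summed level was 16.01 to 16.32 in long days and 16.25 to 16.42 in short days. None of 22 photoreceptor markers was called, with differences from -0.36 to 0.17 and a summed level of 17.26 to 17.35 and 17.22 to 17.47. Of 14 glia markers 1 was lower, and the differences ran from -1.0 to 0.09, with a summed level of 15.37 to 15.50 in long days and 15.25 to 15.42 in short days. Every measured neuron, photoreceptor and glia marker had a mean above 4, as did 13 of the 15 fat body markers. The members were also read on scales set by the neuron, photoreceptor and glia markers, and no scale was set by fat body markers. The part of these shifts in the vri difference was not tested. In whole heads, more cells that express a gene and more RNA of it per cell cannot be told apart.

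To see how the members stood relative to the neurons, every array was scaled to the mean of the 22 neuron markers, an alternative chosen after the data had been seen and fitted on probe sets of mean 4 or more. That mean was 0.20 higher in short days, and overlapped between groups. On this scale vri was still called, at 0.34 (95% interval 0.13 to 0.56), or 1.27-fold (limma adjusted p = 0.104). The tim transcript was then called lower, at -0.39 (-0.63 to -0.15, limma adjusted p = 0.102), or 0.762 of the long day level. The differences of per and cwo were -0.33 (-0.60 to -0.05) and -0.26 (-0.50 to -0.01), neither called, and those of Clk and Pdp1 were 0.11 and -0.02. Scaled to the photoreceptor markers in the same way, vri differed by 0.52 (limma adjusted p = 0.0554) and tim by -0.22 (adjusted p = 0.272). The mean of the 14 glia markers differed by -0.15, while the median of their differences was -0.09 and the lowest, nkt, was at -1.0. Scaled to the glia markers, vri differed by 0.69 (limma adjusted p = 0.0122) and tim by -0.04 (adjusted p = 0.832). The vri rise was called on each of the 3 scales, and its size, like the size and call of tim, depended on the scale. Scaling to a marker mean that differs between the groups moves every gene. The share of all probe sets called was not counted on these scales, so the calls on them have no background to be set against. The marker lists are of broad cell types and do not measure the clock cells among them.

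**Figure D3:**
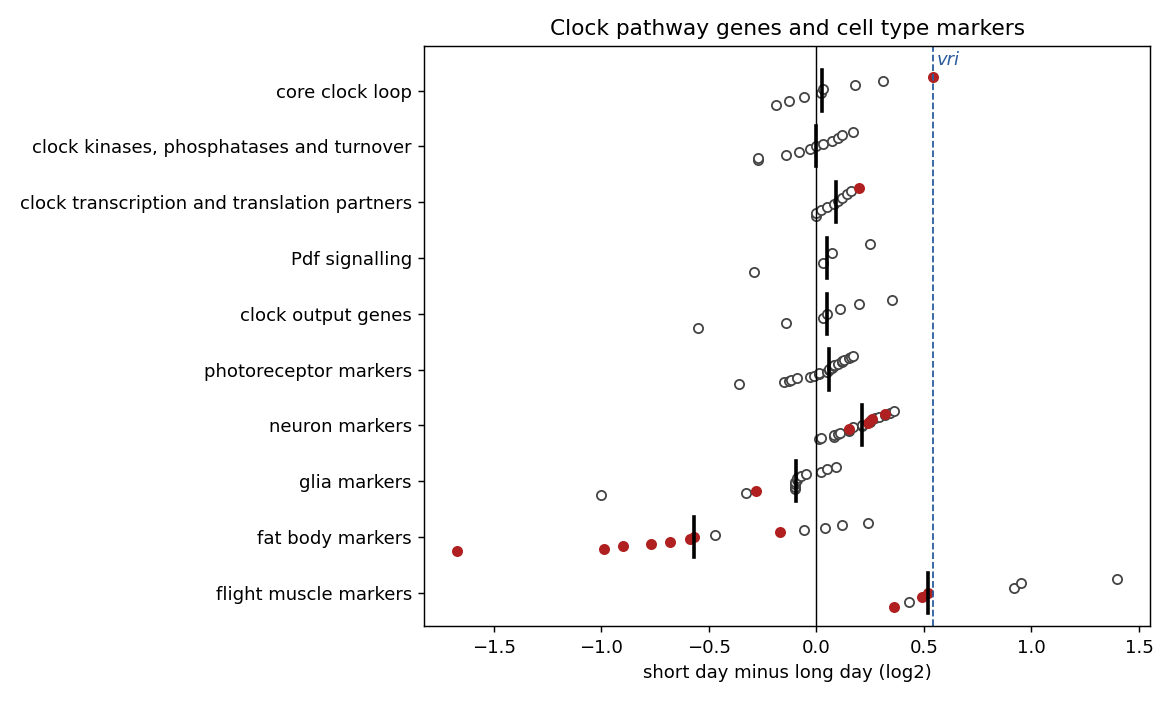
Short day minus long day difference (x axis, log2) of each measured gene of mean 4 or more in the core clock loop, in other clock lists and in marker lists of cell types. Red points are called at an unadjusted p under 0.01, open points are not, black bars are list medians and the dashed line is the value of vri, 0.54. No neuron, photoreceptor or glia marker lies to the right of it. In the flight muscle list 3 genes that were not called do, while the 3 called ones lie between 0.36 and 0.52.

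Of 32 other clock genes in 4 lists, each counted once, 1 was called, a share near the 3.48% of all genes. The list of kinases, phosphatases and protein turnover factors, which set the pace of the clock by modifying PER, TIM and CLK, had 12 measured genes of 17 and none was called, with a median of -0.01. Its smallest p belonged to tws, a regulatory subunit of the phosphatase PP2A, at 0.12 (limma adjusted p = 0.365). The ubiquitin ligase gene ctrip was at 0.07 (adjusted p = 0.563) and Cul3, a ubiquitin ligase scaffold, at -0.08 (adjusted p = 0.599). The kinase gene dco (double-time), which phosphorylates PER, was at 0.17 (95% interval -0.05 to 0.40). The kinase genes sgg, CkIIalpha, CkIIbeta and nmo were listed for no probe set in the annotation used and are not analysed here. The study reports sgg, like vri, among its genes that differed between photoperiods. The counts given here thus leave out a clock kinase gene that the study called.

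Of the 10 measured genes among 12 partners in transcription and translation, 1 was called, tyf, which with Atx2 aids the translation of per RNA. The level of tyf rose from 8.49 ± 0.04 to 8.69 ± 0.10, a difference of 0.20 (limma adjusted p = 0.340). Atx2 was at 0.14 (adjusted p = 0.504) and the corepressor gene CtBP at 0.12 (adjusted p = 0.759). The list median was 0.09. In Pdf signalling, through which clock neurons talk to each other, none of the 4 measured genes of 6 was called. The neuropeptide gene Pdf was at 0.25 (limma adjusted p = 0.577), its receptor gene Pdfr at -0.29 (adjusted p = 0.811) and Galphas at 0.07 (adjusted p = 0.613).

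Of 8 genes known for daily rhythms or clock control, 7 were measured and none was called, with a median of 0.05. Achl had the lowest difference, -0.55 (limma adjusted p = 0.463), Pdh (photoreceptor dehydrogenase) was at 0.11 (adjusted p = 0.579) and Mid1, also called Nlf-1, at 0.20 (adjusted p = 0.646). The relatives of the members were likewise without a call. Of genes with bHLH or PAS domains like those of Clk, cyc and per, 10 were measured, these 3 included, and none was called. The juvenile hormone receptor genes Met and gce were at 0.13 (limma adjusted p = 0.576) and 0.21 (adjusted p = 0.593) and their partner tai at -0.12 (adjusted p = 0.520). In the family of cwo none of 10, cwo included, was called, and 5 of them were near the lowest value of the table. The bZIP gene gt, a relative of vri and Pdp1, was at the lowest value as well.

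The 5 genes whose profiles over the 8 arrays were most like that of vri were found by the root mean square difference after each profile had been centred on its own mean, among 7347 other genes of mean 4 or more. They were CG43066 (0.0698), sbm (0.0861), klg (0.108), jbug (0.111) and CG40486 (0.113), all on the log2 scale. The gene sbm encodes an amino acid transporter, klg (klingon) a cell adhesion molecule of the immunoglobulin family and jbug (jitterbug) an actin-binding protein of the filamin type. In each of the 5, as in vri, replicate 3 was the lowest short day array, in CG40486 at 11.48 against 11.49 on replicate 1. The choice by likeness to vri favours this, so it is not a separate observation. CG43066 was at 9.88, 9.85, 9.89 and 10.11 in long days and at 10.42, 10.44, 10.11 and 10.49 in short days. Of the loop genes, Clk and Pdp1 came closest to vri, at places 982 and 1041 of this order, and tim was the farthest, at place 6028.

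**Figure D4:**
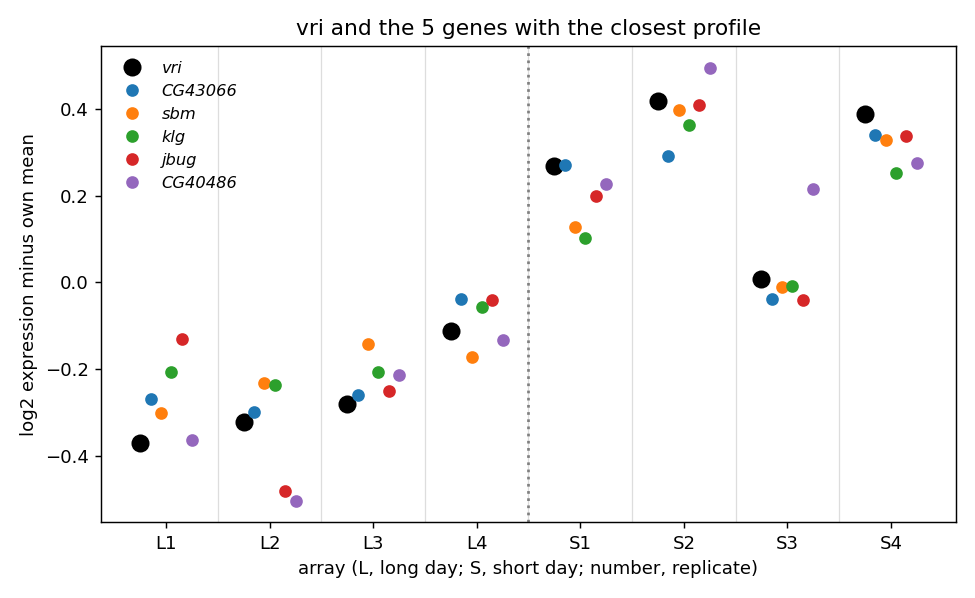
Expression of vri and of the 5 genes with the closest profile (y axis, log2 value minus the gene's mean over the 8 arrays) on each array (x axis; L, long day; S, short day; numbers are replicates). The points of vri lie between -0.37 and -0.11 in long days and between 0.01 and 0.42 in short days.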

How the data were processed

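Total RNA of female heads was extracted with Trizol by the authors, labelled as biotin-cRNA and hybridised to Affymetrix Drosophila Genome 2.0 arrays. The deposited table holds log2 values per probe set that the authors made with GCRMA, which corrects background by probe sequence, quantile normalizes the arrays and gives 1 value per probe set. Its version is not stated. Of the 18952 probe sets 183 controls were left out. No scan dates were used, so no batch could be tested. Quantile normalization hides a change in total mRNA, and the 4 arrays per day length limit the precision. Array medians were 8.44 to 8.52 in the 9107 probe sets with means of at least 4, and pairs of arrays correlated across probe sets with r from 0.983 to 0.996.

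Genes were named from the platform annotation, checked by Entrez number against a RefSeq table of Drosophila Release 6 (of 13647 single-gene probe sets 13544 matched, and no symbol changed). The 402 probe sets of several genes and 4720 without a listed gene name no gene here. No coordinates or sequences are given, since the table names no build and no sequence table was used.

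The test was limma's moderated one, two-sided and without a block (lmFit, then eBayes; limma 3.58.1, R 4.3.3). Ratios of vri to other members were tested two-sided by permuting arrays exactly, and the intervals of those ratios assume normal errors. Named were all members, up to 3 genes of smallest p in each other clock list and the 5 profiles closest to vri. Beyond this rule, after their values were seen, dco, gt, fln, TpnC4, Mlc2, Prm, Strn-Mlck, Fbp1, Fbp2, nkt and the other fat body markers were named. Relatives of the members were handled like a clock list. The members and lists were chosen with earlier results of these data known. After the files were seen, 4 list entries were dropped: mtv, which matched another gene, her, listed in error, and ebony and Fasn1, which repeat e and FASN1. Alternatives covered array weights, low-value filters, centring, variance models, the block, leaving out each array and scaling to cell type markers. The fit was tested on simulated data. Labels and methods differ on the short photoperiod and the collection window, and the label values are used. The methods give fewer hours of light in short days and a collection window that runs later. The hours from and to lights-off given here hold for the labels only.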

Additional observations from a re-analysis of the deposited data

Results flagged for a closer look

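In the dimmer probe set of tim, long day replicate 1 lay apart from the other 3 long day arrays, at 8.97 against 8.65 to 8.66. Its gap to the nearest of them made up 0.954 of the range of the group, more than Dixon's critical value at 95% for 4 samples. The brighter tim set, at 10.75 on that array, did not show this. Of the 20 groups of 4 that were examined 1 met this rule, and chance gives about 1 in 20.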

How the results depend on the processing

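The rise of vri was called in 18 of 18 alternatives and in 3 more chosen after the data were seen, with differences from 0.34 to 0.69, and limma p-values from 5.49e-05 to 0.00720. Its adjusted p in limma was 0.0467 and 0.0326 when only probe sets of mean 4 or 6 were fitted, 0.0122 when scaled to glia markers, and between 0.0554 and 0.831 in the other alternatives. The count of 1 called member changed in 1 alternative, to 2 when scaled to neuron markers, where tim joined vri. No share over all probe sets was counted on the marker scales, so this change cannot be set against a background. Over all probe sets 518 were called, 300 with the replicate block, 180 with a trend and robust variance model, 442 without moderation, 716 with median centring, 691 with array weights, 640 and 616 with only probe sets of mean 4 or 6 fitted, and 345 (without long day replicate 3) to 568 (without long day replicate 4) with an array left out. With the replicate block vri differed by 0.54 (limma adjusted p = 0.584). Pairing by replicate number was not evident. Deviations of same-numbered arrays correlated at 0.01, -0.23, -0.14 and 0.17. Replicates 1, 2 and 3 each correlated more with another number, and replicate 4 did not. With 4 arrays per group these correlations cannot settle whether the samples were paired.

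Signs turned for members that were not called. The cwo difference was 0.012 with its probe sets averaged, ranged from -0.140 to 0.004 with an array left out, and was 0.093 scaled to glia markers, where per was at 0.024. The cyc difference ranged from -0.03 to 0.074 with an array left out and was -0.17 scaled to neuron markers, where Pdp1 was at -0.02 and cry at -0.18. The cry difference ranged from -0.032 to 0.055 with an array left out. Each of the 7 ratios of vri to another member kept its sign in 12 alternatives, and none fell under an adjusted p of 0.05. Permuting within pairs cannot give a p below 0.125.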
